A study of Saccharomyces cerevisiae with 12 samples.

Results

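The small subunit of the cytosolic ribosome of budding yeast, Saccharomyces cerevisiae, is built on 1 ribosomal RNA and a set of proteins whose genes carry RPS names. They were taken as all rows of the class gene whose symbol is RPS followed by digits and an optional A or B, which leaves out the mitochondrial MRPS genes. The rule found 56 of the 5798 genes in the table of 12026 features. They form 24 A and B paralog pairs and 8 genes without a copy, among them RPS2, RPS3, RPS12, RPS13, RPS15, RPS20 and RPS31. All 56 passed the filter on low values.

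Total RNA was depleted of rRNA and sequenced strand by strand from synchronized cells giving 12 libraries in 6 groups of 2 biological replicates. They were untreated wild-type cells, wild-type cells labelled WT+FU, and rrp6-delta cells, which lack RRP6, each at 40 min and at 100 min after synchronization. The series title gives FU as 5-fluorouracil, a pyrimidine analog used against cancer. The sources used here do not give strain background, dose, time of addition, method of synchronization or number of mutant clones. RRP6 encodes a 3′ exonuclease of the nuclear exosome, and it checks the labels: its density was 0.868 to 1.30 reads per nucleotide in wild type, 1.17 to 1.96 with FU and 0.0507 to 0.0781 in rrp6.

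Ribosomal protein genes are among the most highly transcribed genes of growing yeast, and the factors Rap1, Fhl1, Ifh1 and Sfp1 drive them together in step with nutrients and growth. Most were kept as duplicates after an ancient genome duplication, and they hold a large part of all yeast introns. Some copies regulate themselves: Rps14 protein binds the RPS14B precursor and blocks its splicing, and splicing of the RPS9 precursors responds to Rps9. Incompletely spliced or surplus precursors are substrates of nuclear and cytoplasmic decay, in which the exosome and Rrp6 take part.

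An intron interrupts the coding sequence of 36 of the 56 genes in the RefSeq annotation of build R64. The table names no build, and its start and end equal those of R64 for 47 of the 56. The 5′ ends of 6 introns are shown because the RPS9, RPS14 and RPS27 pairs carry the clearest changes between copies. Capitals mark the first 6 bases of the intron, the 5′ splice site. RPS9A lies at chr16:404957-404996 on the plus strand, RPS9B at chr2:604515-604554 on the plus strand, RPS14A at chr3:178174-178213 on the minus strand, RPS14B at chr10:73797-73836 on the plus strand, RPS27A at chr11:158616-158655 on the plus strand and RPS27B at chr8:148627-148666 on the minus strand.
RPS9A: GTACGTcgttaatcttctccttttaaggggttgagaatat
RPS9B: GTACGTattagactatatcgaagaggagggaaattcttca
RPS14A: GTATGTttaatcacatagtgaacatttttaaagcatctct
RPS14B: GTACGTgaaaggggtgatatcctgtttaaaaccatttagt
RPS27A: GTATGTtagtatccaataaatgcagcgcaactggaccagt
RPS27B: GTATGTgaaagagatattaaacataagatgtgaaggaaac

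The common yeast 5′ splice site GTATGT opened 24 of the 36 RPS introns, 66.7%, and 205 of all 281 introns of coding sequences, 73.0%. The variant GTACGT opened 9 of the 36, 25%, and 26 of the 281, 9.25%. Its 9 carriers included both copies of RPS9, RPS19 and RPS30, and RPS14B and RPS21B without their partners. GTATGA opened the other 3, that of RPS6A among them. The copies of RPS14 differ at this site, and those of RPS9 and of RPS27 do not.

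The branch point motif TACTAAC was present in the sense strand of 33 of the 36 introns, 91.7%, against 232 of the 281, 82.6%. It was missing from the introns of RPS9A, RPS9B and RPS21A, which says only that these letters are not there. The stretch from 15 bases before the motif to the intron's 3′ end is shown for the RPS14 and RPS27 pairs, with the motif in capitals. RPS14A lies at chr3:177907-177976 on the minus strand, RPS14B at chr10:74159-74204 on the plus strand, RPS27A at chr11:158913-158966 on the plus strand and RPS27B at chr8:148117-148192 on the minus strand.
RPS14A: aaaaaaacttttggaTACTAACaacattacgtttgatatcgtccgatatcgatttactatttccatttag
RPS14B: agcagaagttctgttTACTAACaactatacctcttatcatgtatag
RPS27A: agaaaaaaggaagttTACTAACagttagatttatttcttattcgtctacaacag
RPS27B: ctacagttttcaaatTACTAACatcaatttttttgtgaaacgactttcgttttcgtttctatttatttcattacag
The distance from the first base of the motif to the intron's end was 31 bases in RPS14B and 55 in RPS14A, and 39 in RPS27A and 61 in RPS27B. Distances in the other pairs were not compared.

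Motifs were also searched in the upstream regions, and 32 of the 56 genes, 57.1%, held neither of those searched. A Rap1-type motif, CACCC and CA with 3 bases of any kind between them, searched on both strands within 500 bases upstream of the annotated start, was found for 20 of the 56 genes, 35.7%, and for 251 of 5773 genes, 4.35%. A second pattern, ATC and ACG with 6 bases of any kind between them, was found for 9 of the 56, 16.1%, and 721 of the 5773, 12.5%. It was searched by its letters only and is not tied here to a factor. The Rap1-type motif as spelled covers only a part of the sites that Rap1 can bind, and a match is a description of the letters. A stretch of 200 bases that begins 400 bases upstream of RPS21B, the gene with the lowest fold change in rrp6 at 40 min, and of RPS9A, the gene with the highest, each holds the Rap1-type motif, in capitals. They lie at chr10:157474-157673 on the minus strand and chr16:404550-404749 on the plus strand.
RPS21B: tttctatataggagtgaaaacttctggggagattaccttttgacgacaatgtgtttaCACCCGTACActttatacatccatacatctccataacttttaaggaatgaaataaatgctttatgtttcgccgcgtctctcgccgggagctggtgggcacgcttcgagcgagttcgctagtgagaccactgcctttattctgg
RPS9A: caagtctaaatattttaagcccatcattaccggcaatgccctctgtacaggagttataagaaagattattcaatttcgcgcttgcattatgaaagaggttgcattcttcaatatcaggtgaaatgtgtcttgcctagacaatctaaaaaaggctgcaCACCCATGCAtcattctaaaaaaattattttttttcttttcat

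Density is the authors' value: the reads on a feature per nucleotide of its span, introns included, times 1 factor per library. Averaged over the 12 libraries, RPS genes spanned 23.6-fold, from 181 reads per nucleotide for RPS31 to 7.69 for RPS9A. RPS31, which encodes ubiquitin fused to a small-subunit protein, ranked 3 among all genes. RPS12 at 154 and RPS20 at 133, a protein of the subunit's head, ranked 4 and 5. Of the 100 genes with the highest density, 30 were RPS genes, and RPS9A, the lowest, ranked 307.

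Genes without a copy held 6 of the 10 highest ranks among the 56. RPS2, which acts in decoding accuracy, stood at 80.0, RPS3, at the mRNA entry site, at 74.1, RPS15 at 50.5 and RPS13 at 30.1. The genes with a copy that stood highest were RPS28A at 86.7, RPS1B at 76.1 and RPS22A at 73.4. The 5 lowest were RPS14B at 10.3, RPS7B at 10.2, RPS22B at 10.1, RPS29A at 9.43 and RPS9A, each the less abundant copy of its pair. The RPS22B value includes reads that can be of a snoRNA in its intron, as described with its ratio. Reads over a spliced messenger are spread over the whole annotated span, so the order changes when reads are set per coding nucleotide. RPS27B, for example, ranked 17 of the 56 by span and 4 by coding length, at 33.7 and 108, while RPS4A ranked 29 and 42.

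**Figure D1:**
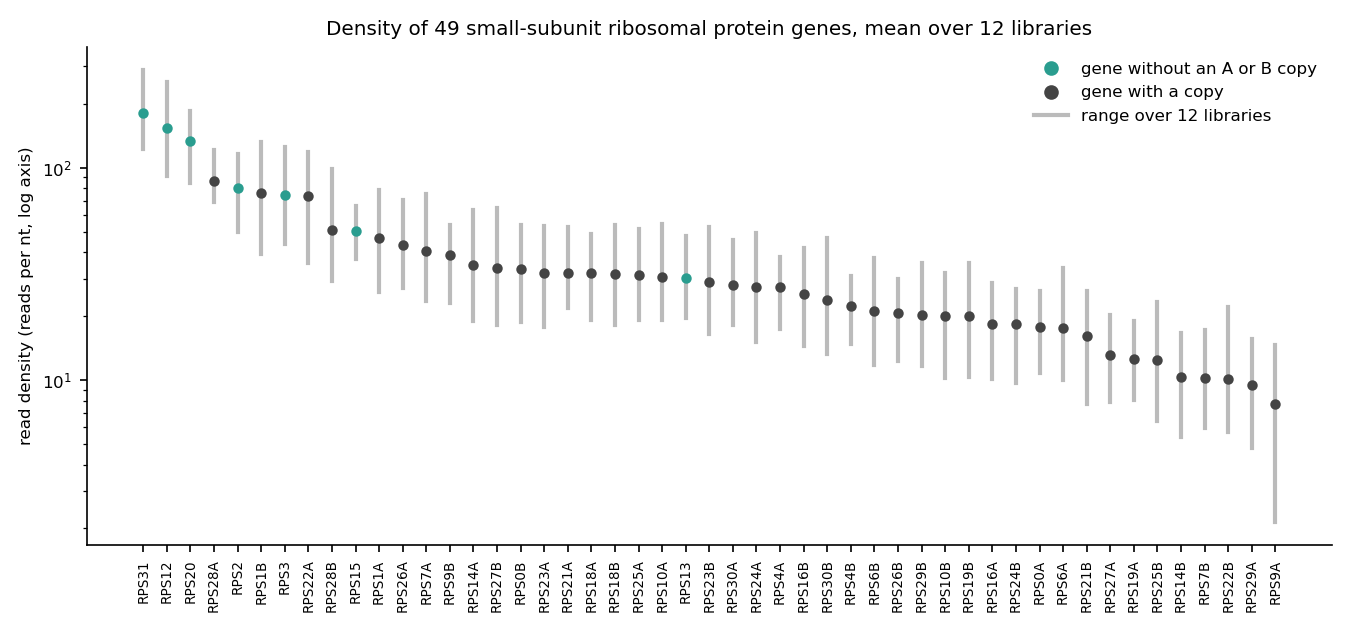
Mean read density (reads per nucleotide of the annotated span, log axis) of 49 of the 56 RPS genes over 12 libraries, with grey bars for the lowest and highest library. Genes without a copy are green; the highest are RPS31, RPS12 and RPS20, and the lowest is RPS9A.

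The summed level of the 56 genes was highest in wild type, and the gap to FU and rrp6 was larger at 40 min than at 100 min. They took 10.8% and 15.6% of all reads over genes in the 2 wild-type libraries at 40 min, where the FU libraries had 6.65% and 8.53% and the rrp6 libraries 6.61% and 6.0%. At 100 min the shares were 11.4% and 11.3% in wild type, 10.6% and 10.1% with FU, and 9.74% and 9.0% in rrp6. At both times every FU and rrp6 library was below both wild-type libraries. In a bulk sample, less RNA per cell and fewer cells that hold much of it, in a given phase of the cycle for example, cannot be told apart.

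The 2 wild-type libraries at 40 min stood apart from each other, and so did those with FU. Replicate 2 of each had a snoRNA share of 20.2% and 20.9% of reads over all features, and replicate 1 had 11.7% and 10.1%; the other 8 libraries had 9.99% to 15.4%. In the same libraries RPS genes were higher in replicate 2 than in replicate 1 by a median of 0.61 on the log2 scale in wild type and 0.38 with FU. Between replicates of the other 4 groups that median was at or below 0, the lowest being -0.17. The part of this split in the 40 min comparisons was not tested, and results with and without these libraries are given below. Depth was 20102931 to 27498217 reads over all features, and the spread between replicates, more than counting error, limits the values.

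**Figure D2:**
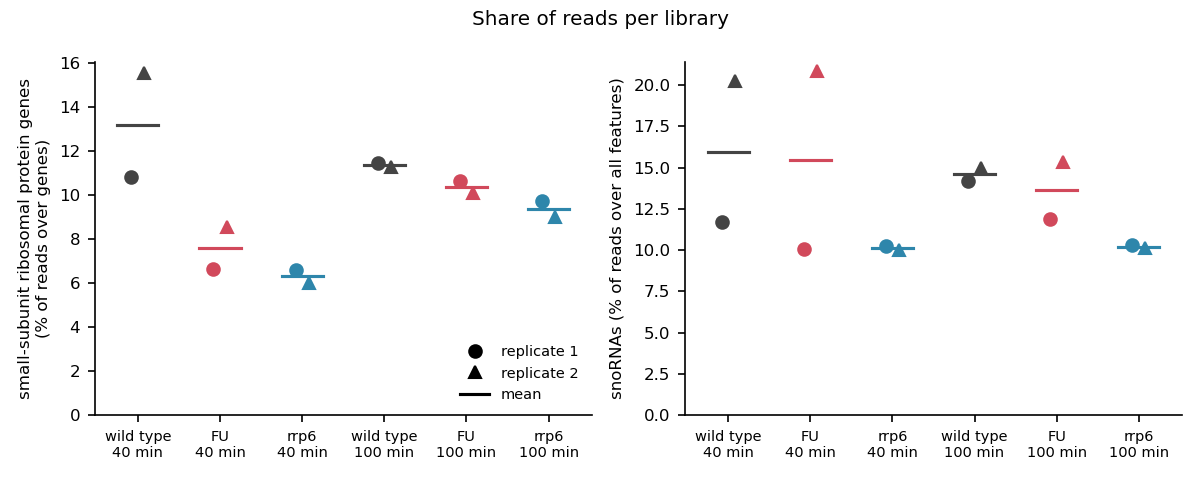
Left, share of reads over genes that fell on the 56 RPS genes (percent) and right, share of reads over all features that fell on snoRNAs (percent), for each of the 12 libraries with the group mean. At 40 min the RPS share is lower in both FU and both rrp6 libraries than in either wild-type library, and the snoRNA share separates the replicates of wild type and FU.

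With FU at 40 min most small-subunit genes had lower values than in wild type, though few passed the test, and RPS9A alone was higher in both libraries. The median RPS log2 fold change was -0.80, while the median over all genes was 0.37, so the RPS genes lay 1.18 below the median gene on the log2 scale (a difference of -1.18). By limma with Benjamini-Hochberg adjustment over 11485 features, 8 of the 56 genes were called lower and 0 higher. Of all features 0.235% were called lower and 2.54% higher, and of genes alone 0.454% were called lower. An unadjusted p under 0.05 was reached by 42 of the 56, 41 of them lower, against 28.1% of all features in either direction. In 42 of the 56 genes both FU libraries were below both wild-type libraries, against 2.61% of features, and in 1 both were above, against 43.2%.

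The 8 called genes include both copies of some pairs, so they are not 8 independent results. RPS2, RPS0A and RPS19B, which have roles in maturation of the subunit's rRNA or in decoding, are among them. So are RPS4A, RPS4B, and RPS6A and RPS6B, whose product is phosphorylated downstream of TOR signalling. In the coding sequences of RPS4 and RPS6, 46.8% and 72.1% of 50-base stretches are not unique, so reads can be shared between copies. RPS2 had 100.3 and 116 reads per nucleotide in wild type and 57.0 and 56.5 with FU. Its replicates differed little in either condition, and its log2 fold change was -0.93 ± 0.19 (SE, adjusted p = 0.0443). RPS19B, whose human counterpart is mutated in Diamond-Blackfan anemia, had the lowest value. It went from 23.0 and 35.7 in wild type to 12.4 and 15.1 with FU, a log2 fold change of -1.07 ± 0.23 (adjusted p = 0.0464). The other 6 called genes had log2 fold changes of -1.01 for RPS6A to -0.80 for RPS0A. RPS31 (-1.01, adjusted p = 0.0616) and RPS24A (-1.01, adjusted p = 0.0674) were as low but not called.

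RPS9A, the less abundant gene of a protein that lines the mRNA entry site and helps accuracy of decoding, went the other way. Its densities were 2.14 and 4.32 in wild type and 6.98 and 7.16 with FU. Both FU libraries were above both wild-type libraries, with a log2 fold change of 1.21 ± 0.28 that missed the threshold (adjusted p = 0.0538). RPS27A (0.41 ± 0.30, adjusted p = 0.368) and RPS14B (-0.05 ± 0.25, adjusted p = 0.904) followed at the top of the list. For these 2 genes the FU and wild-type libraries overlapped.

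These calls depended on single libraries. Without replicate 1 of wild type, or without replicate 2 of FU, 0 of the 56 genes were called. Without replicate 2 of wild type 1 gene was called, RPS9A as higher (1.72, adjusted p = 0.0130; 0.71 without replicate 1 of wild type), and without replicate 1 of FU 6 were. Without replicate 2 of both groups, the pair with the high snoRNA share, 6 genes were called lower and 1 higher. The direction held: the RPS median less the median gene was -1.59 without replicate 1 of wild type and -0.77 without its replicate 2. Scaling by the median of ratios called 0 genes, and limma-voom on recovered reads called 5. With a replicate block 20 were called, RPS9A among them (adjusted p = 0.0370). These counts are given without the share of all features called in the same fit, so their changes may not be particular to RPS genes.

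At 100 min the difference from wild type with FU was smaller, and no small-subunit gene passed the test. The RPS median log2 fold change was -0.12 against 0.30 for the median gene, a difference of -0.42. Limma and limma-voom each called 0 of the 56, with 4 under an unadjusted p of 0.05, 3 lower and 1 higher, against 22.1% of features in either direction. Of all features 0.409% were called lower and 1.74% higher. Both FU libraries were below both wild-type libraries for 26 genes, against 6.99% of features, and above for 6, against 55.6%.

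RPS27A, encoding a zinc finger protein, had the highest value. Its densities were 8.16 and 8.48 in wild type and 15.3 and 14.3 with FU, a log2 fold change of 0.83 ± 0.30 (adjusted p = 0.154). The 2 conditions did not overlap. RPS9A (0.61 ± 0.28, adjusted p = 0.236) and RPS21B (0.45 ± 0.25, adjusted p = 0.308) were next, and RPS22B (-0.53) and RPS15 (-0.43) were among the lowest. Most reads of RPS22B can be of the snoRNA in its intron.

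In rrp6 at 40 min, nearly all small-subunit genes fell, while RPS9A and RPS14B rose. The RPS median log2 fold change was -1.10 and that of all genes 0.45, a difference of -1.55. Called lower were 46 of the 56 genes, against 2.85% of all features and 5.26% of genes, and called higher were 2, against 54.2% and 32.3%. In 50 genes both rrp6 libraries were below both wild-type libraries, against 5.93% of features. All 8 genes without a copy were called lower, as were 21 of the 24 more abundant copies and 17 of the 24 less abundant ones. Genes with and without a coding intron had medians of -1.11 and -1.05, with 29 of 36 and 17 of 20 called lower. Introns outside the coding sequence were not counted, and the annotated spans of 9 of the 56 genes extend upstream of the start codon.

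RPS21B had the lowest log2 fold change, from 19.8 and 26.3 in wild type to 9.56 and 7.74 in rrp6 (-1.41 ± 0.25, limma adjusted p = 0.00116). RPS25B, of a protein needed for translation from some viral entry sites, followed with 14.1 and 23.2 in wild type and 7.30 and 6.43 in rrp6 (-1.40 ± 0.24, adjusted p = 0.00115). RPS6A fell by 1.38, RPS19B by 1.37 and RPS6B by 1.31 on the log2 scale. In all of these the conditions did not overlap. RPS1A, of a platform protein near the mRNA exit, fell by 1.24, RPS2 by 1.11, RPS0A by 1.09 and RPS26B by 1.06. RPS4B fell by 0.96. The 8 genes not called included RPS22B, RPS24B, RPS27A, RPS28A, RPS28B, RPS29B and RPS30A. Among these, in examples chosen after their values were seen, RPS28A had 75.6 and 121 in wild type and 77.8 and 74.8 in rrp6 (-0.33), and RPS28B, whose messenger is known for decay triggered by its own protein and Edc3, had 37.6 and 98.1 against 36.4 and 32.3 (-0.82).

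RPS9A rose from 2.14 and 4.32 in wild type to 12.5 and 10.7 in rrp6, a log2 fold change of 1.93 ± 0.28 (adjusted p = 0.000425). RPS14B, the minor gene of a platform protein with a role in the last cut of small-subunit rRNA, rose from 6.79 and 10.5 to 16.4 and 16.6 (0.96 ± 0.25, adjusted p = 0.00862). Both rrp6 libraries were above both wild-type libraries for these 2 genes alone, against 70.8% of features. RPS27A overlapped between conditions at 0.11 ± 0.30 (adjusted p = 0.759). Scaling by the median of ratios left RPS9A called and ended the call of RPS14B (0.47, adjusted p = 0.313), and it turned RPS27A to -0.38. Without replicate 2 of wild type and FU at 40 min RPS27A was called higher (0.55, adjusted p = 0.0300).

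The called genes numbered 37 to 50 when each library was left out in turn. The median less that of all genes was -1.99 without replicate 1 of wild type and -1.07 without its replicate 2. Without replicate 1 of wild type RPS14B had an adjusted p of 0.05004, over the threshold, and RPS27A stood at -0.32.

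At 100 min fewer genes differed between rrp6 and wild type: 5 of the 56 were called lower, against 2.8% of all features and 5.15% of genes, and 3 higher, against 57.1% and 34.5%. The RPS median log2 fold change was -0.27, that of all genes 0.45 and the difference -0.72. Both rrp6 libraries were below both wild-type libraries for 37 genes, against 9.72% of features, and above for 10, against 78.7%. Relative to the median gene 53 of the 56 were lower, as with FU at this time.

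RPS2 again was called lower, from 112 and 110.3 in wild type to 66.3 and 63.7 in rrp6 (-0.78 ± 0.19, limma adjusted p = 0.00641). RPS0B had the lowest value, -0.85 ± 0.30 (adjusted p = 0.0324). RPS4B (-0.64), RPS6A (-0.61) and RPS4A (-0.44) were the other 3. Leaving out 1 library at a time gave 3 to 6 called genes, and without replicate 2 of rrp6 none of the 5 was called lower.

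The 3 that rose were RPS9A, RPS14B and RPS27A, each the less abundant gene of its pair. RPS9A went from 3.57 and 4.19 in wild type to 14.6 and 14.2 in rrp6, a log2 fold change of 1.89 ± 0.28 (adjusted p = 0.000421). RPS14B went from 5.99 and 7.17 to 15.1 and 16.0 (1.24 ± 0.25, adjusted p = 0.00210). For RPS27A the change was from 8.16 and 8.48 to 20.1 and 17.7 (1.18 ± 0.30, adjusted p = 0.00716). In each the conditions were well apart and replicates close. These 3 rose by 0.73 to 1.44 relative to the median gene. All 3 remained called in every fit that left out a library, and with scaling by the median of ratios RPS9A was called while RPS14B (0.76, adjusted p = 0.102) and RPS27A (0.69, adjusted p = 0.170) were not; that scaling called 14 lower and 1 higher.

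**Figure D3:**
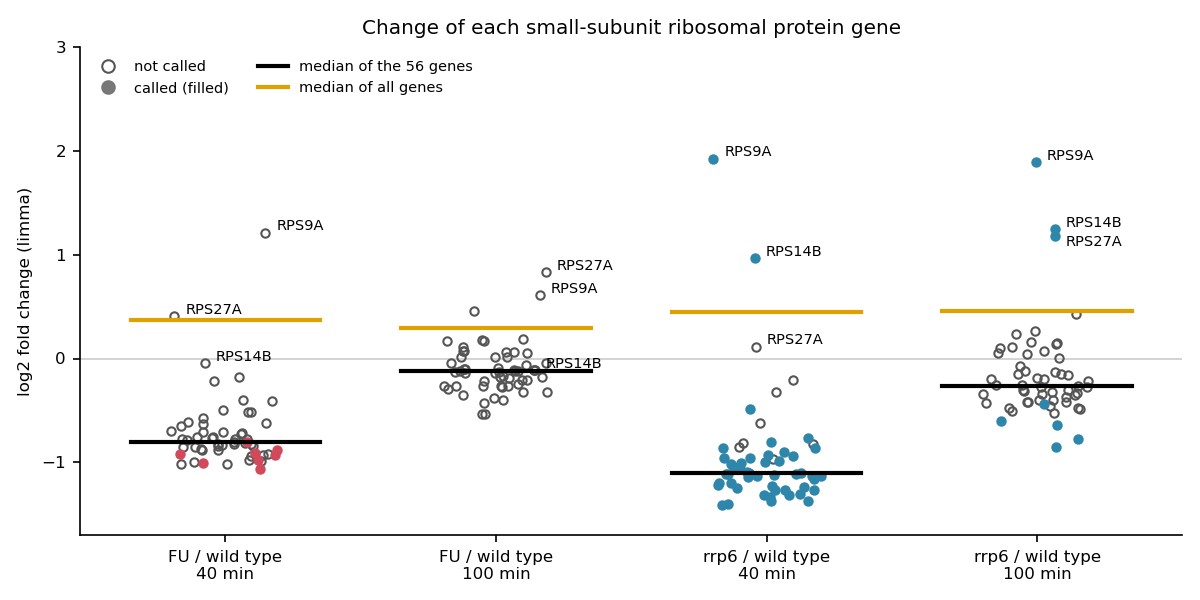
Log2 fold change of each of the 56 RPS genes against wild type at the same time, with called genes filled, the RPS median in black and the median of all genes in orange. The bulk of the genes lies below the median gene in all 4 comparisons, with medians of -0.80, -0.12, -1.10 and -0.27, and RPS9A, RPS14B and RPS27A stand above it in rrp6 at 100 min.

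Change with time was read within each condition, and the medians had opposite signs in wild type and in the other conditions. In wild type the RPS median was -0.22 from 40 to 100 min, 0.15 below the median gene (a difference of -0.15), and limma and limma-voom called 0 of the 56, against 2.37% of features called in either direction. An unadjusted p under 0.05 was reached by 2, both lower, against 17.2% of features. That direction rests on replicate 2 of wild type at 40 min, without which the difference is 0.25. With FU the median was 0.49 and the difference 0.62. RPS4A was called higher, from 17.9 and 18.2 to 32.2 and 33.3 (0.86 ± 0.17, adjusted p = 0.0290), 1 of 56 against 1.38% of features. In rrp6 the median was 0.61 and the difference 0.66. There RPS26B, of a protein at the mRNA exit channel, was called higher, from 13.5 and 12.3 to 25.3 and 24.04 (0.94 ± 0.18, adjusted p = 0.0375), 1 of 56 against 1.08%. Neither call held in every fit that left out a library: without replicate 2 of FU at 40 min or either FU library at 100 min RPS4A was lost, and without any 1 of the 4 rrp6 libraries RPS26B was.

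Whether the difference from wild type changed with time was tested as an interaction. The RPS median was 0.66 for FU and 0.82 for rrp6, which is 0.73 and 0.81 above the median gene. Limma and limma-voom called 0 of the 56 for either, against 0.104% and 0.0784% of features. An unadjusted p under 0.05 was reached by 21 genes for FU and 30 for rrp6, all higher, against 7.34% and 7.64% of features. RPS21B was highest in both, at 1.28 ± 0.35 (adjusted p = 0.388) and 1.56 ± 0.35 (adjusted p = 0.215). RPS9A stood at -0.60 ± 0.39 for FU and -0.03 ± 0.39 for rrp6. Without replicate 2 of wild type at 40 min the medians above that of all genes were 0.27 and 0.34, and without replicate 1 they were 1.18 and 1.29.

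The 24 pairs encode nearly the same proteins. In translation of the reference, 9 pairs had no amino acid difference, 7 had 1, and RPS7 had the most, 23. Coding identity ran from 84.3% in RPS27 to 99.2% in RPS6. Identical stretches limit which copy a 50 nt read can be assigned to. The 50-mers of the spliced coding sequence were compared with the genome and with the other RPS coding sequences. In RPS6, RPS4 and RPS24, 72.1%, 46.8% and 38.2% of them were not unique, and in RPS30 17.5% were not. Introns, over which density is also read, were left out of this count. The sources used here do not say how reads with several matches were counted, so values for RPS6, RPS4 and RPS24 are uncertain.

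Copies contributed unequally. The A copy was higher in all 12 libraries in 11 pairs, the B copy in 9, and 4 pairs changed order. The geometric mean of the A to B ratio over libraries was over 2-fold, in favour of either copy, in 9 pairs. By this measure RPS22A exceeded RPS22B 7.43-fold, RPS9B exceeded RPS9A 5.64-fold, RPS7A exceeded RPS7B 3.92-fold, RPS14A exceeded RPS14B 3.46-fold and RPS25A exceeded RPS25B 2.57-fold. Near to equal were RPS18 at 1.01-fold and RPS23 at 1.11-fold. Set per coding nucleotide, the copy with the higher mean was the same in all pairs, but the mean log2 ratio of RPS22 was 1.02 in place of 2.89, with A higher in 11 of the 12 libraries. Most reads of RPS22B can also be of a snoRNA in its intron, as described with its ratio.

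A ratio of A to B within a library does not depend on the scaling of libraries, and it was tested with limma over all 61 A and B pairs of the table. With FU at 40 min 5 of the 24 RPS ratios changed, against 18.0% of the 61. At 100 min 4 did, against 11.5%. In rrp6 8 changed at 40 min, against 31.1%, and 6 at 100 min, against 19.7%. The shares of RPS pairs called are close to those of all pairs, but the 61 include the 24, so the shares are not independent. A difference between them was not tested.

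RPS9 changed most of the 24 in rrp6 at both times and with FU at 40 min. The share of the A copy in the pair's density was 5.27% and 7.42% in the 40 min libraries of wild type, 23.2% and 19.5% with FU, and 31.9% and 31.4% in the mutant. The conditions were far apart, and the ratio rose by 2.01 ± 0.17 with FU (limma adjusted p = 3.1e-05) and 2.79 ± 0.17 in rrp6 (adjusted p = 1.61e-06) on the log2 scale. At 100 min the A copy made up 7.76% and 8.95% in wild type, 11.4% and 11.9% with FU, and 23.3% and 23.7% in the mutant. The ratio rose by 0.54 ± 0.17 with FU, which was not called (adjusted p = 0.0806), and by 1.75 ± 0.17 in rrp6 (adjusted p = 0.000107). RPS9B itself was lower at 40 min, 38.5 and 53.9 in wild type against 23.1 and 29.6 with FU and 26.7 and 23.5 in rrp6, and at 100 min lay between 42.5 and 48.1 in all 6 libraries.

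RPS14 moved in the mutant. The B copy made up 17.4% and 14.3% of the pair in wild type at 40 min, where the FU libraries had 25.9% and 18.7% and the mutant 45.5% and 46.8%. In rrp6 the log2 ratio of A to B fell by 2.19 ± 0.19 (adjusted p = 8.87e-06), and with FU it was -0.60 ± 0.19, not called (adjusted p = 0.0514). At 100 min B made up 14.7% and 13.5% in wild type, 13.8% and 12.3% with FU, and 33.0% and 35.3% in rrp6. There the ratio fell by 1.66 ± 0.19 in rrp6 (adjusted p = 0.000137), and with FU the difference was 0.13 (adjusted p = 0.675). RPS14A was lower in rrp6, at 19.6 and 18.9 against 32.3 and 63.2 in wild type at 40 min, so that both copies had about the same density there.

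RPS27 differed from wild type in all 4 comparisons. In wild type its A copy made up 20.7% and 18.1% at the earlier time, then 17.8% and 17.1%. FU libraries had 38.9% and 29.5%, then 28.4% and 27.5%, and rrp6 libraries 41.4% and 35.7%, then 40.6% and 37.7%. No FU or rrp6 library overlapped with wild type. The log2 ratio rose by 1.10 with FU (adjusted p = 0.00287) and 1.38 in rrp6 (adjusted p = 0.000273) at 40 min, and by 0.87 (adjusted p = 0.0103) and 1.60 (adjusted p = 0.000138) at 100 min, each with an SE of 0.19. The change with FU at 100 min was not called in any fit that left out 1 of its libraries (adjusted p of 0.0615 to 0.0859); that with FU at 40 min and both in rrp6 were called in every such fit.

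**Figure D4:**
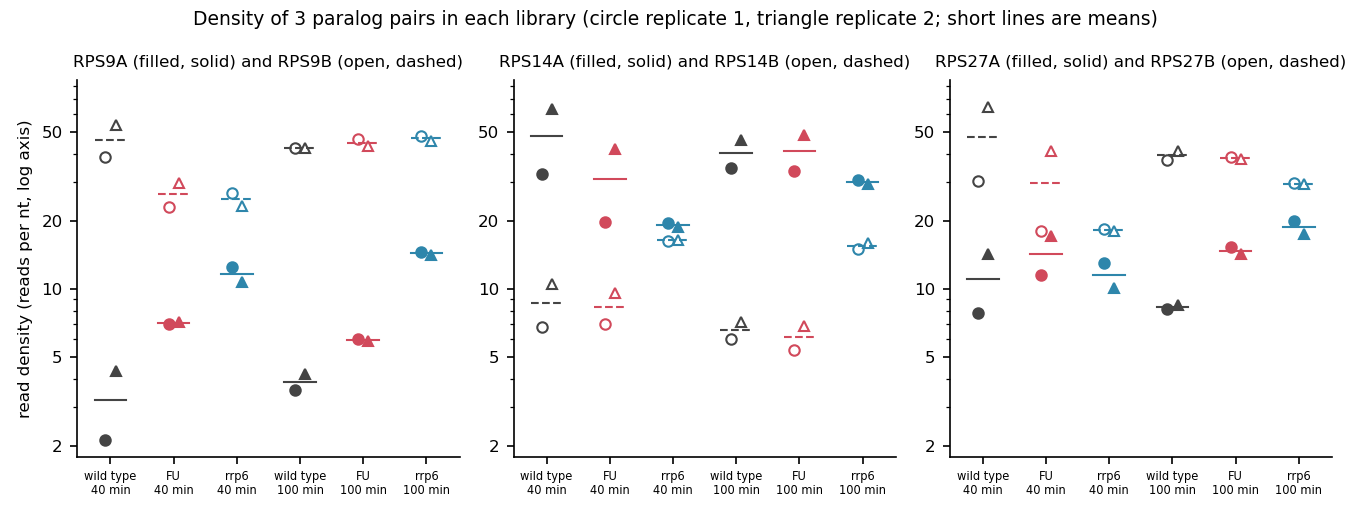
Read density (reads per nucleotide, log axis) of both copies of RPS9, RPS14 and RPS27 in each library, with short lines for group means; grey is wild type, red FU and blue rrp6. In rrp6 RPS9A rises to 10.7 to 14.6 and RPS14B to 15.1 to 16.6 while their partners do not rise at 40 min, and RPS14A and RPS14B nearly meet.

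Other called ratios were smaller. RPS19 shifted to its A copy with FU at 40 min (0.45 ± 0.09, adjusted p = 0.00566) and in rrp6 at 40 min (0.57, adjusted p = 0.000594) and 100 min (0.39, adjusted p = 0.00888). RPS30 shifted to A at 40 min by 0.30 with FU and 0.35 in rrp6, and RPS25 by 0.39 in rrp6. At 100 min RPS16 shifted to A by 0.44 with FU and 0.36 in rrp6. Of these, RPS19 and RPS25 at 40 min were called in all fits that left out 1 library; RPS30, RPS16 and RPS19 in rrp6 at 100 min were each lost in at least 1.

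RPS21 moved in opposite directions at the 2 times. A made up 62.4% and 66.7% in wild type, 68.0% and 70.7% with FU and 70.4% and 73.9% in rrp6 at 40 min. At 100 min it was 69.3% and 71.4% in wild type, 57.9% and 60.7% with FU and 64.8% and 67.0% in the mutant. The log2 ratio rose by 0.51 ± 0.13 in rrp6 at 40 min (adjusted p = 0.0131) and fell by 0.70 ± 0.13 with FU at 100 min (adjusted p = 0.00772). Without replicate 1 of wild type or replicate 2 of rrp6 the former was not called (adjusted p of 0.0960 and 0.1003), and without replicate 2 of wild type or replicate 1 of FU the latter was not (0.0750 and 0.0749).

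The intron of RPS22B holds SNR44, a box H/ACA snoRNA that guides modification of rRNA, on the same strand. Reads counted on SNR44 equalled 73.1% to 80.5% of those counted on RPS22B in wild type and FU and 55.8% to 59.1% in rrp6, so most of the RPS22B value can be snoRNA. The log2 A to B ratio of RPS22 fell by 0.74 ± 0.15 with FU (adjusted p = 0.00688) and 0.50 ± 0.15 in rrp6 (adjusted p = 0.0275) at 40 min, and it rose with time in wild type by 1.04 (adjusted p = 0.00329). The wild-type change was not called without replicate 2 at 100 min (0.89, adjusted p = 0.0541). With the SNR44 reads taken off RPS22B the 3 values were -0.86, -1.30 and 1.21. Without replicate 1 of wild type or replicate 2 of rrp6 the change in rrp6 was not called (adjusted p = 0.144 and 0.175). RPS26A overlaps the annotated gene YGL188C-A on its strand, and its reads may be shared likewise.

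Ratios also shifted with time, tested after the other results were seen. In wild type RPS22 alone changed, 1 of 24 against 3.28% of the 61 pairs. With FU 8 of the 24 did, against 23.0%, and in rrp6 4, against 14.8%. Leaving out 1 library gave 0 to 2 in wild type, 3 to 10 with FU and 1 in rrp6, whichever of its 4 libraries was left out. Without replicate 2 of wild type and FU at 40 min 4 pairs were called in wild type and 15 with FU, and with a replicate block 3 were in wild type. With FU RPS22 rose by 2.05, RPS9 fell by 1.03, RPS14 rose by 0.92, RPS21 fell by 0.64 and RPS19 fell by 0.33. RPS1, RPS4 and RPS10 were called too, at -0.44, 0.33 and -0.37. In rrp6 RPS22 rose by 1.34, RPS14 rose by 0.73, RPS9 fell by 0.59 and RPS10 fell by 0.38. Whether a ratio's difference from wild type changed with time was called for 3 pairs with FU, RPS9, RPS21 and RPS22, against 6.56% of the 61, and for 2 in rrp6, RPS9 and RPS21, against 9.84%. For RPS14 this was not called with FU (0.73, adjusted p = 0.178) or in rrp6 (0.53, adjusted p = 0.319). Without replicate 2 of FU at 100 min RPS14 with FU was not called (adjusted p = 0.0771), RPS21, RPS19, RPS1, RPS4 and RPS10 with FU were each lost in at least 1 such fit, and RPS9, RPS14 and RPS10 in rrp6 were each lost without any 1 of its 4 libraries.

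**Figure D5:**
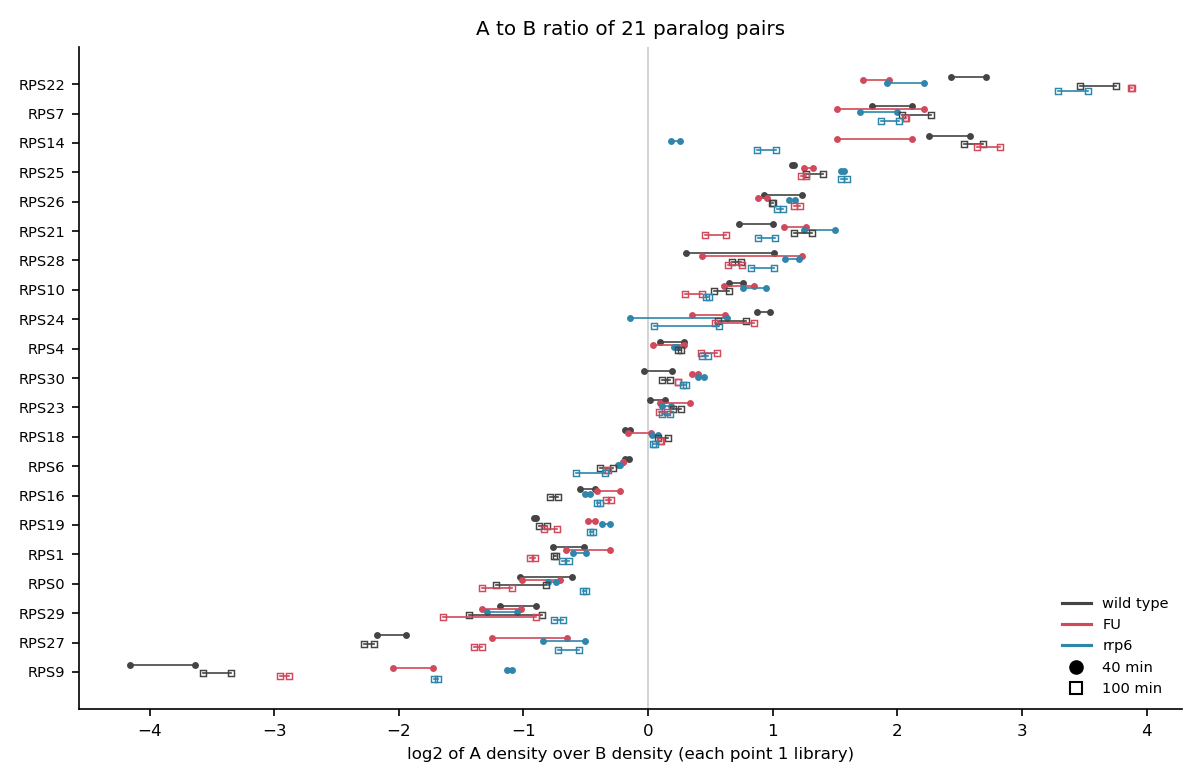
Log2 of A density over B density for 21 of the 24 paralog pairs in each library, 2 points per group joined by a line, with filled circles for 40 min and open squares for 100 min. RPS9 and RPS14 libraries of rrp6 lie apart from wild type, and RPS27 libraries of both FU and rrp6 lie nearer to 0 than wild type.

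Genes that act on the small subunit or on its protein genes were mostly higher in rrp6 where they were called. Of 11 genes for transcription of ribosomal protein genes, 0 were called with FU at either time. With FU at 40 and 100 min 2.54% and 1.74% of all features were called higher, and 0.235% and 0.409% lower. For a list of 11 genes, 0 is near those shares. In rrp6 8 were called higher and 1 lower at 40 min, and 7 higher at 100 min. TOD6, a repressor of ribosome biogenesis genes, rose by 1.30 and 1.35 on the log2 scale, and CRF1, a corepressor, by 1.66 and 2.33 from low densities of 0.0436 and 0.0188 in wild type. IFH1, the coactivator, rose by 1.33 and 1.09, SFP1 by 0.65 and 0.67, and FHL1 by 0.94 and 1.20. RAP1 was not called at either time (0.64 and 0.55, limma adjusted p = 0.185 and 0.242). DOT6, the partner repressor of TOD6, was the gene called lower, by limma at 40 min (-0.92, adjusted p = 0.0217). Of genes alone 32.3% and 34.5% were called higher in rrp6, and of all features 54.2% and 57.1%.

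Of 14 assembly factors and chaperones of the small subunit, 0 were called with FU at either time. This too is near the FU shares of all features, 2.54% and 1.74% called higher and 0.235% and 0.409% called lower. In rrp6 9 were called higher at 40 min and 6 at 100 min. The shares called higher there were 32.3% and 34.5% of genes, and 54.2% and 57.1% of all features. RIO2, a kinase of late assembly, rose by 0.91 and 0.79, and NOB1, the endonuclease of the last rRNA cut, by 0.69 and 0.87. YAR1, the chaperone of Rps3, rose by 0.89 and 0.92. ASC1, the beta-propeller protein bound to the finished subunit, had lower values, as most RPS genes did: it fell by 2.06 in rrp6 at 40 min (adjusted p = 0.000659) and by 1.53 at 100 min (adjusted p = 0.00297), with -1.21 for FU at 40 min (adjusted p = 0.0718). Whether the span of ASC1 holds another feature on its strand, as RPS22B holds a snoRNA, was not checked. STM1, which clamps idle ribosomes, was not called in any of the 4. The 81 genes of large-subunit proteins had medians of -0.76 and -0.11 with FU and -0.95 and -0.15 in rrp6, at 40 and 100 min, close to those of the small subunit.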

How the data were processed

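Hot phenol extraction, per the labels, gave total RNA, which was depleted of rRNA and made into stranded libraries, read as paired ends of 2x50 nt. Per the submitters' processing notes TopHat was used. The sources used here do not give its version, the counter, the build or the handling of reads with several matches. The authors deposited a signal, the read density of each feature in each library. Density times length, divided by 1 factor per library, gave whole reads for 100% of values at a tolerance of 0.001, and the factors set all libraries to the same number of reads over genes. The depth was therefore known, and counting error is small for these genes.

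Densities plus 0.0120173, the 10th percentile of values above 0, were set to log2. Features at or above that value in at least 2 libraries were kept, 11485 with 5725 genes. Limma 3.58.1 (R 4.3.3) was fitted with 1 mean per group, a variance trend, 6 residual degrees of freedom and two-sided tests, and p-values were adjusted by Benjamini-Hochberg over all features kept, or over the 61 pairs for ratios. Called means an adjusted p under 0.05. A fold change on this scale understates changes of low features. Limma-voom on the recovered reads was an alternative. The limma fits of densities and of ratios were tested on simulated data, and limma-voom was not. Sequences and annotation were read from RefSeq R64 with Biopython 1.88.

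The RPS genes named are those with the smallest adjusted p, the lowest and the highest values in each comparison, the highest and lowest levels, the genes without a copy and the pairs with called or extreme ratios. Genes named from the other lists are examples, not all of them with the smallest adjusted p. Members, lists, motifs and tests were chosen with earlier results of these data known. The ratio tests for time and the alternatives without replicate 2 at 40 min and without SNR44 reads were chosen after seeing the data. A few members that entered every fit and count are not reported here by name.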

Additional observations from a re-analysis of the deposited data

Results flagged for a closer look

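A difference between FU or rrp6 and wild type that itself differed between 40 and 100 min was found for the A to B ratio of 3 pairs, tested as an interaction with limma, a test chosen after the other results were seen. For FU 3 of the 24 pairs passed, against 6.56% of the 61, and for rrp6 2, against 9.84%. RPS9, the pair of a decoding protein, had an interaction of -1.48 ± 0.24 (SE) for FU (adjusted p = 0.00406) and -1.03 ± 0.24 for rrp6 (adjusted p = 0.0350) on the log2 scale. In rrp6 RPS9A itself was higher by much the same at both times (1.93 and 1.89), while RPS9B was lower than in wild type at 40 min and not at 100 min. RPS21 had -1.01 ± 0.18 for FU (adjusted p = 0.00644) and -0.81 ± 0.18 for rrp6 (adjusted p = 0.0350). RPS22 had 1.01 ± 0.21 for FU (adjusted p = 0.0136), and 0.94 (adjusted p = 0.0367) with SNR44 reads taken off RPS22B.

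The interactions of RPS9 and RPS21 with FU were called in every fit that left out 1 library. For RPS22 with FU the highest adjusted p in such fits was 0.0755, without replicate 1 of wild type at 100 min, and it was also over the threshold without replicate 1 of wild type at 40 min and without either FU library at 100 min. For rrp6 the calls were lost in 7 such fits for RPS9 and 6 for RPS21, with adjusted p up to 0.135, without replicate 2 of rrp6 at 40 min. The RPS9 value for FU ranged from -1.90 to -1.22 over its alternatives, and its lowest was without replicate 2 of wild type and FU at 40 min, the libraries with the high snoRNA share.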

How the results depend on the processing

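The alternatives were pseudocounts 10 times larger and 0.1 times as large, no filter, median of ratios scaling, limma-voom, no variance trend, a replicate block, leaving out each library, and those chosen later. Of 39 changed ratios that were followed 17 were called in all of their alternatives, RPS9, RPS14 and RPS27 in rrp6 against wild type among them. Of 29 named gene calls 12 were.

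For FU at 40 min 8 RPS genes were called, and 0 with the larger pseudocount, 0 with median of ratios scaling, 5 with limma-voom and 20 with the replicate block; leaving out 1 library gave 0 to 6. For FU at 100 min median of ratios scaling called 1. For rrp6 at 100 min it called 15, and leaving out 1 library gave 3 to 6. With time, wild type had 1 call without replicate 2 of wild type and FU at 40 min. FU had 28 calls in that setting, 0 with median of ratios scaling, 2 with limma-voom, 2 with the block and 0 to 2 on leaving out 1 library. Calls in rrp6 with time were 2 with the larger pseudocount, 0 with median of ratios scaling or no variance trend, and 0 without any 1 library. Changed ratios numbered 0 to 2 for FU at 100 min and 3 to 7 for rrp6 at 100 min on leaving out 1 library. The cause of these differences was not tested, except that fewer libraries leave fewer degrees of freedom. Shares of all features called in these alternatives are not given, so changes in these counts may not be particular to RPS genes or pairs.

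Signs turned for small or uncalled values, given here as the range on leaving out 1 library. The RPS median less the median gene with time in wild type ran from -0.61 to 0.25, and was 0.25 without replicate 2 of wild type and FU at 40 min. RPS27A with FU at 40 min ran from -0.027 to 0.84, and RPS14B there from -0.36 to 0.27, with 0.041 without replicate 2 of both groups. RPS27A in rrp6 at 40 min ran from -0.32 to 0.55 and was -0.38 with median of ratios scaling. RPS9A with time in wild type ran from -0.16 to 0.85. In the interactions RPS22B for FU ran from -0.87 to 0.16, and RPS9A for rrp6 from -0.53 to 0.47.

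The labels do not say that a replicate number marks a shared day or batch, and 2 replicates a group are too few to tell the source of a shared deviation. Deviations of same-numbered libraries correlated across the genes kept by 0.87, 0.35, 0.20 and -0.21 in the 4 comparisons with wild type, and by 0.32 to 0.63 in those with time. The numbers were not taken as pairs, as the labels do not give pairs. The 0.87 is for FU at 40 min, where same-numbered libraries shared deviations that the main test ignores. There the block raised the calls from 8 to 20 and added RPS9A and RPS31. Between same-numbered libraries the RPS median less the median gene was -1.03 for replicate 1 and -1.29 for replicate 2. Leaving out a library leaves 1 in its group, which is then assumed to vary like the other groups.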

Other observations

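RPS24B, the less abundant gene of its pair, differed between the rrp6 replicates and is named here because of that spread. It had 18.5 and 9.72 reads per nucleotide at 40 min and 26.8 and 16.8 at 100 min, replicate 1 being higher both times, while in wild type it had 17.1 and 24.9, then 19.6 and 20.9. Its partner RPS24A had 16.7 and 15.1, then 27.8 and 24.9, in the same rrp6 libraries. In each copy 38.2% of the 50-mers of the spliced coding sequence are not unique, and the source of the spread was not tested.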
